A study of Homo sapiens with 18 samples.

Results

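The DEAD-box and DEAH-box RNA helicases were taken as every protein-coding gene whose symbol is DDX or DHX followed by a number, without DDX58 and without Y-linked genes, and each was matched to its Ensembl identifier. This gave 53 genes, 37 with a DDX and 16 with a DHX symbol, among the 58302 genes of the expression table. The cells were PANC-1, a line from a human pancreatic ductal carcinoma, in which lentivirus had stably delivered either a control shRNA construct (shCtrl, an empty vector per the labels, although the study's reagent list names a non-targeting shRNA) or an shRNA against NAT10 (shNAT10), the enzyme that writes N4-acetylcytidine (ac4C) on RNA. Both groups thus carried a lentiviral construct, both came from 1 cell line, and the sources used here do not say which of the NAT10 shRNAs of the study was in these cells, so an effect of the shRNA outside NAT10 and the effect of less NAT10 cannot be told apart. RNA-seq was done on 3 libraries per group, and acRIP-seq, an immunoprecipitation of fragmented RNA with an antibody against ac4C, on 3 IP and 3 input libraries per group. The design text asks which genes change with NAT10.

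DEAD-box and DEAH-box proteins share a helicase core that binds RNA and hydrolyses ATP. DEAD-box proteins mostly open short duplexes or remodel RNA-protein complexes locally, whereas many DEAH-box proteins move along a single strand and pull on the RNA. Members act in ribosome assembly, splicing, export, translation, decay and antiviral defence, so nearly every step in the life of an RNA uses some of them.

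NAT10 itself was at 31.6, 27.7 and 28.6 FPKM (reads scaled to gene length and library size) in the shCtrl libraries and at 7.92, 8.43 and 7.90 in the shNAT10 libraries, a log2 fold change of -1.84. The 6 libraries held between 15964222 and 23718069 reads on genes, recovered from the steps of the deposited values. The 6 ductal and epithelial markers summed to 2792 to 3753 FPKM in shCtrl and to 1497 to 1678 in shNAT10, with KRT8, KRT18, KRT19 and KRT7 lower and EPCAM higher in shNAT10 at adjusted p-values under 0.05 in limma, and their part in the values of the helicases was not tested. Acinar, endocrine and endothelial markers summed to at most 0.344 FPKM in any library. Of 4 immune markers PTPRC, CD3E and MS4A1 were at or near 0 and CD14 fell from a mean of 2.53 to 1.46 FPKM (limma, adjusted p = 0.00863), and of 4 fibroblast markers COL1A2, DCN and LUM were near 0 and COL1A1 fell from 31.1 to 19.2 (limma, adjusted p = 0.00182). Testing was limited to the 12982 genes that reached an FPKM of 1 in 3 or more libraries. Among them 1 library stood apart: shCtrl replicate 2 was the highest or the lowest of the 6 in 62.3% of genes, and in 31 of the 47 helicases that passed this filter (66.0%). The counts of calls, and the calls that changed, are also given without it. The labels do not say that the libraries of a group came from separate cultures, so p-values measure the spread between these libraries, which may be technical, and in bulk RNA fewer cells that express a gene and less RNA per cell cannot be told apart.

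Of the 53 helicases, 47 passed the filter. Their mean level in shCtrl ranged from 1.55 FPKM for DDX60L to 101.7 for DDX5, with a median of 17.1, against a median of 8.01 over all genes tested. FPKM is a value per length, so levels can be set side by side. The 8 helicases above 50 FPKM in shCtrl were, in falling order, DDX5 (101.7 ± 2.18, SD, n = 3), DDX3X (93.3 ± 18.3), DHX9 (80.5 ± 6.74), DHX15 (76.6 ± 6.73), DDX17 (70.2 ± 14.0), DDX21 (66.4 ± 15.1), DHX32 (65.9 ± 0.605) and DDX6 (52.7 ± 9.33). Each neighbouring pair among the first 7 lay within 1 SD (the larger of the pair), so neighbours in this order did not differ beyond the spread between libraries, while DDX5 was above DHX9, DHX15 and DHX32 in every shCtrl library. The 6 helicases below the filter were the germline genes DDX4, DDX25 and DDX53, the interferon-induced DDX60 and DHX58, and DDX47, a ribosome biogenesis factor at 0.777 ± 0.0545 FPKM whose exons share 36.5% of their bases with APOLD1 on the same strand, so reads could have been lost or split in the counting. DDX53 was listed at 0 in all libraries, DDX4 was at 0 in 5 of 6 and had 2 reads in shNAT10 replicate 2, and DDX25 had 3 to 5 reads in each library.

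Expression changed in 11 of the 47 helicases at an adjusted p-value under 0.05 (limma on log2 of FPKM + 0.1, Benjamini-Hochberg over all 12982 genes). 5 were lower in shNAT10, DDX56, DDX52, DDX60L, DDX39B and DHX30, which is 10.6% of those tested, where 21.2% of all tested genes were lower. DDX60L passed the filter through its shCtrl libraries alone, and without such genes 4 of 46 helicases (8.7%) and 20.5% of all genes were lower. 6 were higher, DHX37, DDX24, DDX43, DDX59, DDX11 and DDX23, which is 12.8%, where 20.8% of all tested genes were higher. Without any filter, where 29695 genes entered, 11.5% of 52 helicases were lower and 11.5% higher, against 7.85% and 7.55% of all genes, so the order of these shares turned with the filter. The median log2 fold change of the 47 was 0.02, against -0.01 over all genes tested. DDX56 alone passed a log2 fold change of -1, a size that 3.57% of tested genes passed in the lower direction, and no helicase passed 1 in the higher direction, which 2.91% of tested genes did. All 3 shNAT10 values lay below all 3 shCtrl values in 15 of the 47 helicases and above them in 18 of the 47. Over all 12982 tested genes, the values lay below in 28.6% and above in 27.9%. For 40 of the 47 the log2 fold change was smaller than 0.5 in size, with standard errors from 0.06 to 0.18. An exact permutation test of a single gene gives at best p = 0.1 with 3 libraries against 3 (two-sided), which every helicase whose groups did not overlap reached.

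**Figure D1:**
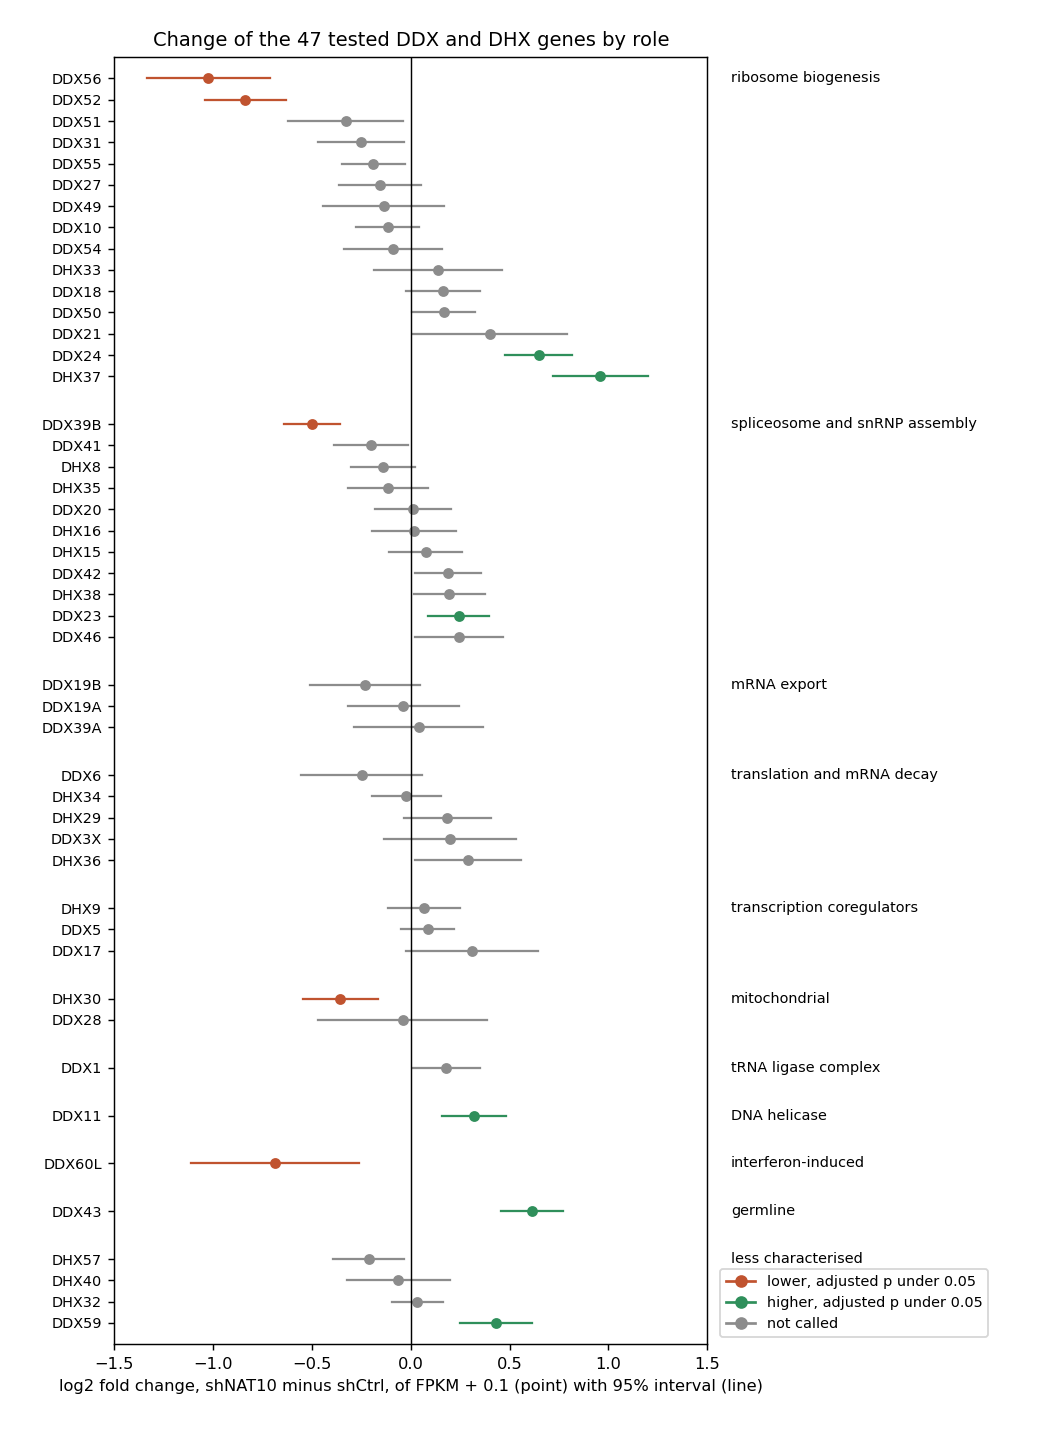
Log2 fold change of FPKM + 0.1, shNAT10 minus shCtrl, for the 47 tested helicases (points) with 95% intervals of the limma fit (lines), grouped by role. The 5 called lower and 6 called higher are coloured, and the intervals of the other 36 are grey. Changes run from -1.02 for DDX56 to 0.96 for DHX37, both in ribosome biogenesis.

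These counts depended on shCtrl replicate 2. Without it, 9 helicases were lower (19.1%, against 25.6% of all genes in that fit) and 11 were higher (23.4%, against 25.4%). Added to the 11 were then DDX6, DHX57, DHX8 and DHX40 in the lower direction and DDX39A, DDX50, DDX46, DHX36 and DDX21 in the higher. In shCtrl replicate 2 the log2 level of DDX21 was 0.59 below the mean of replicates 1 and 3, and DDX3X (0.50 below), DDX17 (0.48 below), DDX6 (0.44 below) and DHX33 (0.43 below) were low in it too. DDX28 (0.53), DDX39A (0.49), DDX56 (0.41) and DDX49 (0.40) were above that mean by the log2 amounts given. Among helicases called in neither fit, the log2 fold change went from 0.20 to 0.03 in DDX3X, from 0.068 to 0.003 in DHX9, from 0.076 to 0.003 in DHX15 and from -0.04 to 0.13 in DDX28. For DHX36 it went from 0.29 to 0.16 (limma, adjusted p = 0.0478 without that library). Without shCtrl replicate 1 instead, 4 were lower (8.51%, against 23.1% of all genes in that fit) and 10 higher (21.3%, against 22.2%). What sets replicate 2 apart was not tested.

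**Figure D2:**
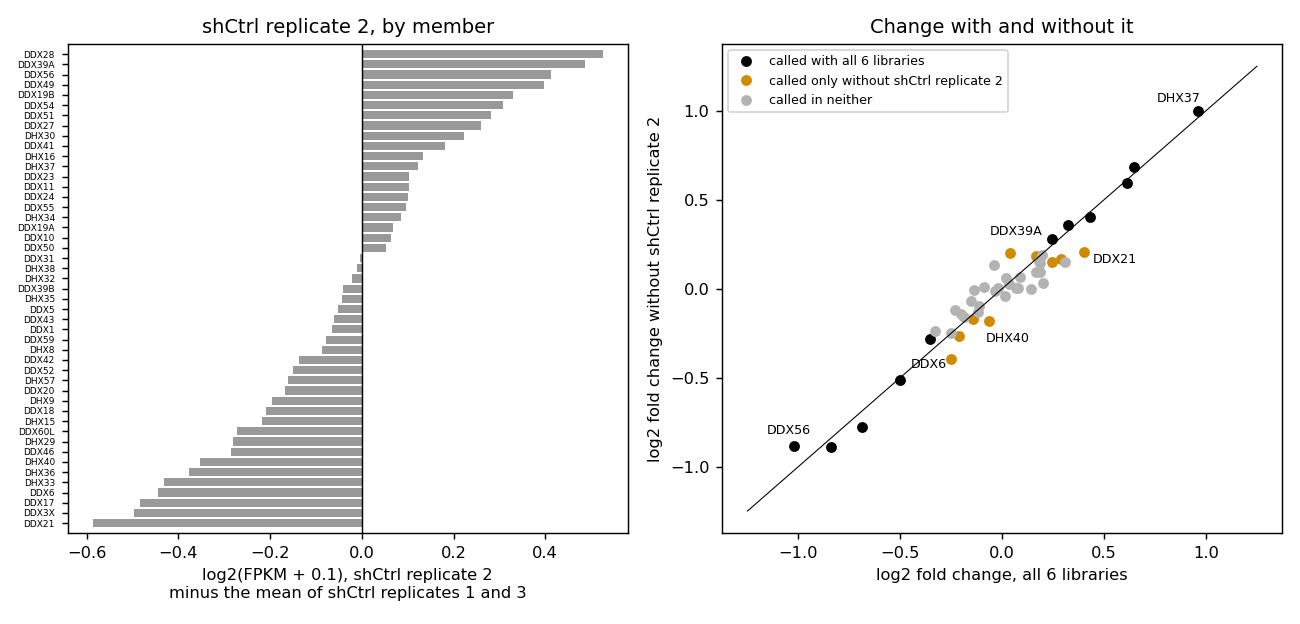
Left, log2(FPKM + 0.1) of shCtrl replicate 2 minus the mean of shCtrl replicates 1 and 3, 1 bar per tested helicase, from -0.59 (DDX21) to 0.53 (DDX28). Right, log2 fold change with all 6 libraries against that without shCtrl replicate 2, where the 11 called helicases (black) lie near the line of equal values and 9 more (orange) pass the threshold.

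Ribosome biogenesis was the largest role, with 16 helicases that act on precursor rRNA and its snoRNAs in the nucleolus. NAT10 also works there, since it acetylates 18S rRNA. Of the 15 tested, 2 were lower and 2 higher (13.3% each, against 21.2% and 20.8% of all tested genes), and the median log2 fold change was -0.12. DDX56, a nucleolar helicase of the large subunit pathway (chr7:44565417-44575051, minus strand, GRCh38), was at 28.3, 37.6 and 28.1 FPKM in shCtrl and at 16.6, 15.5 and 13.7 in shNAT10. Every shNAT10 value lay below every shCtrl value, with shCtrl replicate 2 the highest. The log2 fold change was -1.02 (SE 0.13, adjusted p = 0.00125 from limma), and -0.89 without shCtrl replicate 2. DDX52, the human counterpart of yeast Rok1 in small subunit assembly (chr17:37609739-37643464, minus strand), was at 6.30, 5.54 and 6.01 FPKM in shCtrl and at 3.35, 3.32 and 3.17 in shNAT10, a log2 fold change of -0.84 (SE 0.09, adjusted p = 0.000527 from limma). The groups did not overlap, and the shNAT10 values lay close together.

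DHX37, which releases U3 snoRNA from the small subunit precursor (chr12:124946825-124989122, minus strand), moved the other way, from 5.03, 4.96 and 4.11 FPKM in shCtrl to 9.70, 8.77 and 9.15 in shNAT10. It had the largest rise of the helicases, with a log2 fold change of 0.96 (SE 0.10, adjusted p = 0.000566 from limma). DDX24, linked to large subunit maturation (chr14:94048291-94081245, minus strand), was at 12.9, 13.2 and 11.7 FPKM in shCtrl and at 20.2, 19.7 and 19.5 in shNAT10, a log2 fold change of 0.65 (SE 0.07, adjusted p = 0.000692 from limma). In both genes the groups were well apart. So within 1 role the 2 largest falls and the 2 largest rises of the role stood side by side.

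The other 11 ribosome biogenesis helicases tested did not pass the threshold. DDX21, which binds snoRNAs and rRNA and had the highest level of the role, was at 79.1, 49.7 and 70.4 FPKM in shCtrl and at 83.3, 83.1 and 92.3 in shNAT10. The groups did not overlap, but shCtrl replicate 2 was far below the others, and the log2 fold change of 0.40 had an adjusted p of 0.0896 from limma (0.21 and 0.0428 without that library). Its closest relative DDX50 was at 26.8, 28.5 and 28.2 FPKM in shCtrl and at 29.6, 32.4 and 31.8 in shNAT10, a log2 fold change of 0.17 (limma, adjusted p = 0.0858). DDX51 (-0.33, adjusted p = 0.0688), DDX31 (-0.25, adjusted p = 0.0658) and DDX55 (-0.19, adjusted p = 0.0612) had negative log2 fold changes with adjusted p-values just over the threshold in limma. The remaining DDX10, DDX18, DDX27, DDX49, DDX54 and DHX33 lay between -0.16 and 0.16.

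**Figure D3:**
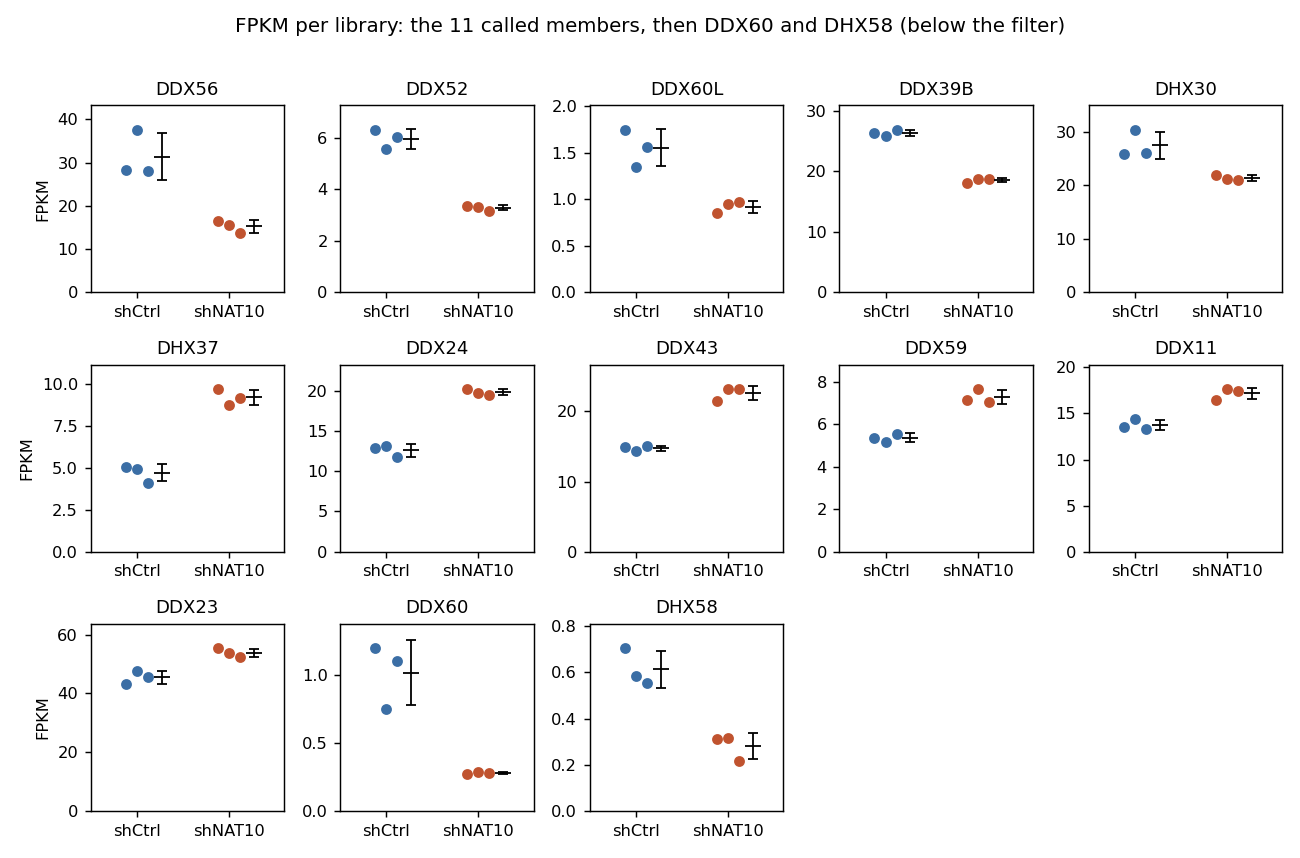
FPKM of each library (points; shCtrl blue, shNAT10 red) with the mean and SD of the 3 libraries beside them, for the 11 called helicases and for DDX60 and DHX58. Axes start at 0. The groups of all 13 genes are apart, and in DDX56 and DHX30 shCtrl replicate 2 lies above its 2 partners.

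Of 11 helicases of the spliceosome and of snRNP assembly, 1 was lower and 1 higher (9.1% each, against 21.2% and 20.8% of all tested genes). Their median log2 fold change was 0.02. DDX39B (UAP56), which loads the branch site with U2 snRNP and couples splicing to export (chr6:31530219-31542448, minus strand), was at 26.2, 25.8 and 26.8 FPKM in shCtrl and at 18.1, 18.8 and 18.8 in shNAT10. The spread within each group was small and the groups were apart, with a log2 fold change of -0.50 (SE 0.06, adjusted p = 0.000955 from limma). Of its exon bases, 30.8% are shared with the readthrough gene ATP6V1G2-DDX39B and a snoRNA on the same strand, so its level is uncertain where the counting could not assign reads. Its paralog DDX39A, an export factor, did not differ beyond the spread, at 27.1, 37.6 and 26.6 FPKM in shCtrl and 29.4, 32.7 and 30.6 in shNAT10 (log2 fold change 0.04, 95% interval -0.29 to 0.37). shCtrl replicate 2 was the highest of its 6 values, and without it the log2 fold change was 0.20 (adjusted p = 0.0237 from limma).

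DDX23, the U5 snRNP helicase known as PRP28 (chr12:48829764-48852842, minus strand), was at 43.2, 47.7 and 45.6 FPKM in shCtrl and at 55.4, 53.7 and 52.4 in shNAT10. The log2 fold change of 0.24 (SE 0.07, adjusted p = 0.0232 from limma) was the smallest of the 11 called, and leaving out shCtrl replicate 3 or any 1 of the shNAT10 libraries raised its adjusted p to between 0.0679 and 0.0963. The DEAH-box helicases that drive the steps of splicing showed small values. DHX8 (PRP22), which releases the spliced mRNA, had a log2 fold change of -0.14 (limma, adjusted p = 0.136), and its paralog DHX38 (PRP16), which acts before the second step, 0.19 (adjusted p = 0.0788 from limma). DHX15 (PRP43), which takes the spliceosome apart and had the highest level of the role, was at 82.0, 69.1 and 78.7 FPKM in shCtrl and at 80.0, 79.5 and 82.1 in shNAT10 (log2 fold change 0.08, 95% interval -0.11 to 0.26). The other spliceosomal members DDX41 (-0.20), DDX42 (0.19), DDX46 (0.25), DHX16 (0.02) and DHX35 (-0.12) did not pass the threshold in limma. The less studied DHX15 paralog DHX32 was at 65.9, 65.3 and 66.5 FPKM in shCtrl and at 67.9, 67.7 and 66.6 in shNAT10, with the smallest standard error of the 47 (0.055) and a log2 fold change of 0.03 (95% interval -0.10 to 0.16).

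Around these helicases, G-patch proteins, cofactors that switch on DHX15 and other DEAH-box helicases, were called at about the share of all tested genes. Of 20 tested, 4 were lower and 4 higher, where 21.2% and 20.8% of all tested genes were, and the median log2 fold change was -0.04. The largest falls were GPATCH1 (-0.66, from a mean of 19.8 to 12.5 FPKM), GPATCH8 (-0.50) and GPATCH11 (-0.45). The largest rises were RBM6 (0.38), GPATCH3 (0.37) and RBM5 (0.30), on the log2 scale and all at adjusted p-values under 0.05 in limma.

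For export, translation and decay, 0 of 8 tested helicases passed the threshold with all libraries in limma. Of all tested genes, 21.2% were lower and 20.8% higher. DHX36 alone of the 8 had an unadjusted p under 0.05 (0.0389). By voom on the recovered reads 0 of the 8 passed too, where 22.0% of all genes were lower and 21.8% higher. Over all 47 helicases, an unadjusted p under 0.05 was reached by 10 in the lower and 13 in the higher direction. The share of all tested genes at this threshold is not given here, so these counts do not set the helicases apart. DDX19A and DDX19B, near-identical neighbours that release export factors at the nuclear pore, were at 1.87 ± 0.0564 and 4.25 ± 0.614 FPKM in shCtrl and at 1.82 ± 0.0254 and 3.58 ± 0.125 in shNAT10 (n = 3). 23.8% of the exon bases of DDX19A and 15.7% of those of DDX19B are shared with a gene on the same strand, and the copies resemble each other, so the split between them is uncertain. DDX3X, a helicase of translation initiation, was at 109.0, 73.2 and 97.8 FPKM in shCtrl and at 104.7, 101.4 and 110.8 in shNAT10, and its groups overlapped (log2 fold change 0.20, 95% interval -0.14 to 0.53). DDX6, which represses translation and promotes decapping, was at 60.7, 42.5 and 55.1 FPKM in shCtrl and at 42.3, 43.5 and 45.8 in shNAT10. shCtrl replicate 2 lay among the shNAT10 libraries and the others above them, so the log2 fold change of -0.25 (limma, adjusted p = 0.164) became -0.40 (adjusted p = 0.00139 from limma) without it. DHX36, which unwinds G-quadruplexes, had a log2 fold change of 0.29 (limma, adjusted p = 0.0804), and its paralog DHX57 -0.21 (adjusted p = 0.0575 from limma). DHX29, a translation initiation helicase, had 0.19, and DHX34, a factor of nonsense-mediated decay, -0.02, on the log2 scale.

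Binding partners of DEAD-box proteins were called in both directions. Of 25 partners (translation initiation, exon junction, export, SMN and decapping factors), 9 were higher (36.0%, against 20.8% of all tested genes) and 1 lower (4.0%, against 21.2%), a difference from the other genes that was not tested, and their median log2 fold change was 0.13. The largest rises were LSM14A (0.81), EDC3 (0.74) and PATL1 (0.40). LSM14A was at 52.4, 46.1 and 52.5 FPKM in shCtrl and at 87.0, 86.4 and 91.1 in shNAT10. The gene that fell was GEMIN2 (-0.37), which works with DDX20 in the SMN complex, while DDX20 had a log2 fold change of 0.01 (95% interval -0.18 to 0.21).

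The transcription coregulators DDX5, DDX17 and DHX9 were among the most abundant members. DDX5 (chr17:64499616-64508199, minus strand) was at 103.6, 99.3 and 102.3 FPKM in shCtrl and at 105.1, 109.4 and 109.1 in shNAT10. The values of the groups did not overlap, yet the log2 fold change of 0.09 had a 95% interval of -0.05 to 0.22. Its paralog DDX17 was at 83.2, 55.4 and 72.2 FPKM in shCtrl and at 84.4, 84.9 and 88.5 in shNAT10 (log2 fold change 0.31, adjusted p = 0.118 from limma, and 0.15 without shCtrl replicate 2). DHX9 had a log2 fold change of 0.07 (95% interval -0.11 to 0.25). DDX1, a part of the tRNA ligase complex, was at 38.1, 36.7 and 38.7 FPKM in shCtrl and at 39.8, 43.7 and 45.3 in shNAT10 (log2 fold change 0.18, adjusted p = 0.082 from limma).

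DHX30, a helicase of the mitochondrial ribosome and RNA granules and a gene the study names (chr3:47802909-47850195, plus strand), was at 25.9, 30.4 and 26.1 FPKM in shCtrl and at 21.9, 21.3 and 21.0 in shNAT10. Every shNAT10 library was below every shCtrl library, and shCtrl replicate 2 was the highest. The study lists DHX30 among transcripts with lower RNA and less acetylation, at a false discovery rate under 0.05 and a log2 fold change under -1. That list joined acRIP-seq, ac4C-seq (which reads ac4C at single bases) and RNA-seq, and the study also measured DHX30 by qRT-PCR. Here, in a fit of FPKM, the log2 fold change was -0.36 (SE 0.08, adjusted p = 0.0124 from limma) and did not reach that size. Without shNAT10 replicate 2 or 3 the adjusted p rose above the threshold, to at most 0.0546, with log2 fold changes between -0.40 and -0.25 over all alternatives. For acetylation, the overlapping DHX30 peaks had fold enrichments of 40.9 in shCtrl and 319 in shNAT10. Its peaks without overlap had 6.92 in shCtrl and 131 in shNAT10. These come from 1 pooled list per group without a test, and the ac4C-seq data were not used here. DDX28, the other mitochondrial member, did not differ beyond its spread (log2 fold change -0.04, 95% interval -0.47 to 0.39), and 22.5% of its exon bases lie opposite DUS2.

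Single genes rose in the remaining roles, which also held DHX40 (log2 fold change -0.06, adjusted p = 0.672 from limma). DDX43, a cancer-testis antigen normally restricted to the germline (chr6:73394748-73417569, plus strand), was well expressed, at 14.9, 14.4 and 15.1 FPKM in shCtrl and at 21.5, 23.2 and 23.2 in shNAT10, a log2 fold change of 0.61 (SE 0.07, adjusted p = 0.000635 from limma). The other 3 germline members were at or near 0, as given above. 20.2% of the DDX43 exon bases lie opposite CGAS and OOEP, and whether the counting used strand is not given in the sources used here. DDX59, a gene of ciliary signalling (chr1:200623896-200669969, minus strand), was at 5.37, 5.16 and 5.56 FPKM in shCtrl and at 7.12, 7.65 and 7.02 in shNAT10 (log2 fold change 0.43, SE 0.08, adjusted p = 0.00462 from limma). DDX11, a DNA helicase of sister chromatid cohesion with several pseudogene copies that may share its reads (chr12:31073845-31104791, plus strand), was at 13.5, 14.4 and 13.3 FPKM in shCtrl and at 16.5, 17.6 and 17.4 in shNAT10 (log2 fold change 0.32, SE 0.07, adjusted p = 0.00945 from limma). The groups of all 3 genes were apart.

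The interferon-induced members were at most at 1.74 FPKM in any library, and in all 3 every shNAT10 value lay below every shCtrl value. DDX60L (chr4:168356735-168537786, minus strand) was at 1.74, 1.35 and 1.56 FPKM in shCtrl and at 0.848, 0.948 and 0.968 in shNAT10. A difference in this direction was built into its being tested, as given above. The log2 fold change was -0.69 (SE 0.18, adjusted p = 0.0210 from limma), and 7 of 14 alternatives took it over the threshold, to at most 0.0713. DDX60, its neighbour (chr4:168216293-168318807, minus strand), was at 1.20, 0.749 and 1.11 FPKM in shCtrl and at 0.271, 0.288 and 0.279 in shNAT10, or 126, 92 and 158 reads against 26, 34 and 30. The groups were far apart, but the gene was below the filter, and a fit without a filter gave a log2 fold change of -1.53 (SE 0.27, adjusted p = 0.0126 from limma). DHX58 (LGP2), a regulator of RNA sensing (chr17:42101404-42112733, minus strand), had 32, 31 and 34 reads in shCtrl and 13, 16 and 10 in shNAT10, and without a filter its log2 fold change was -0.91 (adjusted p = 0.0778 from limma).

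Other genes of the interferon response were lower as well. Of 18 listed, 10 passed the filter, and their median log2 fold change was -1.14. By limma 7 were lower (70.0%, against 21.2% of all tested genes) and 0 higher, also 0 higher at an unadjusted p under 0.05. OAS1, among the 7, passed the filter through its shCtrl libraries alone, so a fall was built into its being tested. The largest falls were IFIT2 (-2.58, from a mean of 11.1 to 1.78 FPKM), IFIT3 (-2.26) and IFI6 (-1.80). Among 18 other RNA helicases tested, from outside the DDX and DHX names, 4 were lower and 4 higher, with a median of 0.04. That is 22.2% each, near the 21.2% and 20.8% of all tested genes. The largest falls were those of IFIH1 (MDA5, the sensor of long double-stranded RNA; -1.03), HELZ2 (-0.71) and MOV10 (-0.67), and the largest rises those of SKIV2L (0.67), ASCC3 (0.61) and ZNFX1 (0.42), on the log2 scale.

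Since DDX60 and DDX60L are interferon-induced neighbours, the 250 bases upstream of each start site were searched on both strands for GAAA, any 2 bases and GAAA again, a core of the interferon-stimulated response element to which interferon-activated factors bind. RefSeq promoters (GRCh38.p14) matched 48 of the 53 symbols. The motif was found in 3 of them, DDX60, DDX60L and DHX15, in 3.02% of all 35116 promoters of this length, and in 7 of the 14 interferon-stimulated genes with a promoter. The stretches are shown because these neighbours hold 2 copies each, with the matches in capitals, written 5′ to 3′ on the strand of the gene: DDX60 at chr4:168318771-168318865 (minus strand, 2 copies), DDX60L at chr4:168480508-168480597 (minus strand, 2 copies) and, for comparison, DHX15 at chr4:24584735-24584794 (minus strand, 1 copy).
DDX60: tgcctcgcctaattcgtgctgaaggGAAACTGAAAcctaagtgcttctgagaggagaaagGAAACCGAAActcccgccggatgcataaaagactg
DDX60L: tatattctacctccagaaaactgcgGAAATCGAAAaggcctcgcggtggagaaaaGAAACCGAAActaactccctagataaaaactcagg
DHX15: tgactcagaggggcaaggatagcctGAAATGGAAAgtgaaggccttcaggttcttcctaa
The upstream copy ended 78 bases before the RefSeq start site in DDX60, 70 in DDX60L and 205 in DHX15. DHX58 had no match in this window.

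The acRIP-seq data came as 1 pooled peak list for each group, and therefore the counts and fold enrichments (IP over input) have no replicates and no test. A peak was found on 35 of the 53 helicases in shCtrl (82 peaks) and on 33 in shNAT10 (73 peaks). Among tested genes, 32 of 47 helicases (68.1%, 95% Wilson interval 53.8 to 79.6, counting error only) carried a peak in shCtrl, where 49.6% of all tested genes did, and 31 of 47 (66.0%, 51.7 to 77.8) in shNAT10, where 47.7% of all tested genes did. The helicases also had the higher median FPKM given above, and the part of level in these shares was not tested. Peaks stood on 26 helicases in both lists, on 9 in shCtrl alone, on 7 in shNAT10 alone and on 11 in neither. Of the tested helicases 8 had a peak in shCtrl alone and 7 in shNAT10 alone, that is 17.0% and 14.9%, near the 15.8% and 13.9% of all tested genes.

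Members called lower and higher differed in where they had peaks. Of the 5 helicases that were lower in shNAT10, 4 (DDX56, DDX60L, DDX39B and DHX30) had peaks in both lists and DDX52 had 1 peak, in shCtrl alone, at a fold enrichment of 57.6. Of the 6 that were higher, DHX37, DDX43, DDX59 and DDX23 had no peak in either list, DDX24 had peaks in both and DDX11 in shNAT10 alone. Over all tested genes, 36.0% of those lower and 29.5% of those higher had no peak in either list. With 5 and 6 helicases, these counts are given as a description.

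The 3 interferon-induced members carried the highest fold enrichments. DDX60L carried peaks of up to 1690 in shCtrl and 1420 in shNAT10, DHX58 1010 and 439, and DDX60 965 and 1130, all at mean levels under 2 FPKM, while DDX47 at 0.777 FPKM had a peak of 7.61. Over the members with a peak, the highest fold enrichment and the mean FPKM had a Spearman correlation of -0.35 in shCtrl (n = 35 genes) and -0.44 in shNAT10 (n = 33 genes), a description across genes of 1 pooled list that share input depth. Peaks of at least 300 numbered 12 of 82 on 9 members in shCtrl and 10 of 73 on 9 members in shNAT10. The upper quartile of the helicase peaks was 85.15 in shCtrl and 115 in shNAT10, below the 247 and 234 of all peaks. The median fold enrichment of the helicase peaks was 17.2 in shCtrl and 23.6 in shNAT10, below the 49.3 and 45.2 of all peaks.

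**Figure D4:**
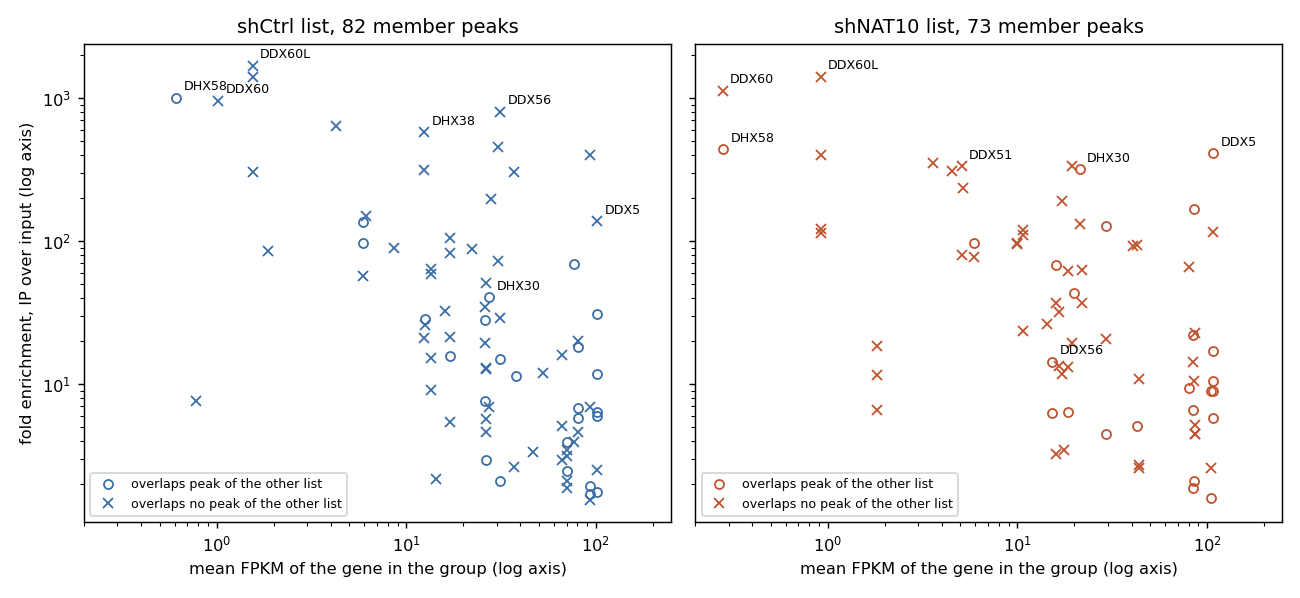
Fold enrichment of each helicase peak against the mean FPKM of its gene in the same group, both on log axes, for the 82 shCtrl peaks (left) and the 73 shNAT10 peaks (right). Circles overlap a peak of the other list and crosses do not. The highest peaks of DDX60, DDX60L and DHX58, all at 439 or more, lie at the upper left at low FPKM, and the DDX5 peaks lie at the right.

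Peaks of the 2 lists seldom fell on the same bases. Of the 82 shCtrl peaks on helicases, 25 (30.5%, 95% Wilson interval 21.6 to 41.1) shared at least 1 base with a shNAT10 peak on the same strand, where 25.5% of all 16892 shCtrl peaks did. Of the 26 helicases with peaks in both lists, 14 had such an overlap (53.8%), as had 50.7% of the 5176 genes with peaks in both lists, and 12, among them DDX60, DDX60L, DDX19B, DDX21 and DHX36, had peaks at other places of the same gene. Among the 25 overlapping pairs of peaks, fold enrichment was higher in shNAT10 in 14 and lower in 11, with a median ratio of shNAT10 over shCtrl of 1.20. The matching values over all genes are not given here, so these do not set the helicases apart. A pair in each of DDX24, DHX58 and DDX3X shared only 1 base, so such ratios compare largely different stretches. The widest ratios were in DDX17 (3.96 in shCtrl and 167 in shNAT10) and DDX5 (11.7 and 414) in 1 direction, and in DHX15 (68.9 and 9.47) and DDX42 (28.2 and 4.49) in the other.

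By the midpoint on the longest protein-coding transcript (GENCODE v29, GRCh38), 47 of the 82 shCtrl peaks lay in the CDS (57.3%), 10 in the 3′ UTR (12.2%) and 3 in the 5′ UTR (3.7%), and 22 (26.8%) lay off that transcript. Over the peaks of all protein-coding genes the shares were 49.9% in the CDS, 31.7% in the 3′ UTR, 2.9% in the 5′ UTR and 15.5% off the transcript. In shNAT10, 43 of 73 helicase peaks were in the CDS (58.9%), 12 in the 3′ UTR (16.4%) and 16 off the transcript (21.9%), against 49.2%, 31.2% and 16.7% of the peaks of all protein-coding genes. The helicase peaks thus held a smaller share in the 3′ UTR in both lists, by count.

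The peaks off the longest coding transcript sat in exons of other transcripts of the same gene, in 22 of 22 cases in shCtrl and 16 of 16 in shNAT10, which also held for 99.4% and 99.7% of such peaks over all protein-coding genes. In 10 of the 22 and 11 of the 16, the only transcripts with the midpoint were annotated as retained introns, against 42.4% and 44.7% over all protein-coding genes. 4 of the 6 DDX39B peaks of shCtrl, at fold enrichments of 4.61 to 50.8, were of this kind, as were DDX5 peaks of 138 in shCtrl and 414 in shNAT10, the DDX17 pair of 3.96 and 167, and DDX51 (334) in shNAT10. The DDX56 peak of 807 at chr7:44574094-44574273, which overlapped no shNAT10 peak, lay in the 5′ UTR of a transcript annotated for nonsense-mediated decay. The DDX3X peak of 400 in shCtrl lay in the 3′ UTR of other transcripts of the gene.

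**Figure D5:**
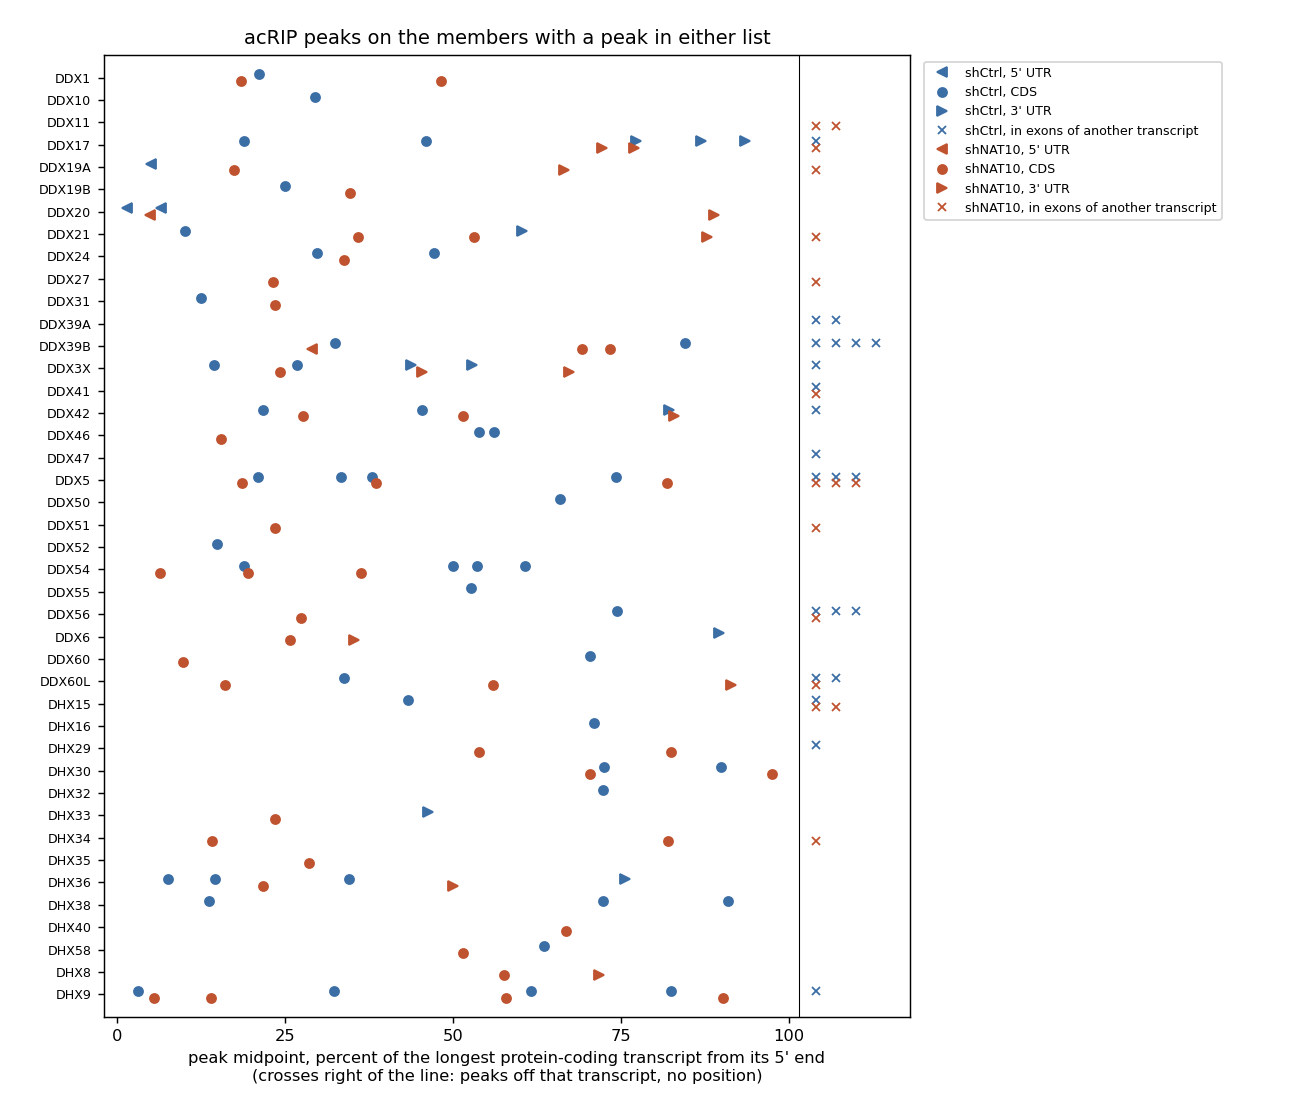
Midpoint of each helicase peak as a percent of the longest protein-coding transcript of its gene, counted from the 5′ end, for the 42 members with a peak in either list (blue, shCtrl; red, shNAT10; the marker gives the region). Crosses right of the line are the 22 shCtrl and 16 shNAT10 peaks off that transcript. CDS peaks spread over the whole length, and DDX5 and DDX39B hold several crosses.

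Among members with peaks in shCtrl alone, the highest fold enrichments were those of DHX38 (580), DDX39A (458), DDX50 (197), DDX10 (90.4) and DHX16 (88.3). DDX52 (57.6), DDX47 (7.61), DHX32 (2.94) and DDX55 (2.16) were lower. In shNAT10 alone they were those of DDX51 (334), DHX35 (308), DDX11 (190), DHX34 (119) and DHX8 (97.5), then DDX27 (62.7) and DHX40 (26.2). DDX47 was not tested. Of the 8 tested members with peaks in shCtrl alone, 1 (DDX52) also changed in level at an adjusted p-value under 0.05 in limma. Of the 7 in shNAT10 alone, 1 did (DDX11). Over all tested genes with peaks in shCtrl alone, 437 were higher, 404 lower and 1215 not called. In shNAT10 alone these counts were 360, 436 and 1014. With so few helicases, their counts are given as a description. DHX38 and DHX35, both spliceosomal, had log2 fold changes of 0.19 and -0.12 with adjusted p-values of 0.0788 and 0.310 from limma.

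The coding sequence under 4 peaks is shown, for DHX30, which the study names, for DHX9, an abundant member with the longest overlap outside DDX5, and for DHX38 and DHX35 as the highest CDS peaks of members found in 1 list alone. Each is the RNA sequence written as DNA, from the GENCODE v29 transcript on GRCh38, 5′ to 3′. Capitals mark 4 units of CNN (a cytosine and any 2 bases) in a row, searched on the sense strand, a pattern that ac4C studies have looked for.
DHX30: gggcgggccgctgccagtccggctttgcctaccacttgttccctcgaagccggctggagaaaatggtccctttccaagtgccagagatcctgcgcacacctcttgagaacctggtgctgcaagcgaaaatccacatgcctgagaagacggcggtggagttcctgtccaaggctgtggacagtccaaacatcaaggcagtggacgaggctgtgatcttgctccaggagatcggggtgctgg
DHX9: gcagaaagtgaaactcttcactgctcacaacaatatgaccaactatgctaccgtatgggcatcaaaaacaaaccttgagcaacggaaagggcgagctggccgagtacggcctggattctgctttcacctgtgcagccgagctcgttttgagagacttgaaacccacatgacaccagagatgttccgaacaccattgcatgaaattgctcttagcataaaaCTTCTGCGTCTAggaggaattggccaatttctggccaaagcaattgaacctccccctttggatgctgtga
DHX38: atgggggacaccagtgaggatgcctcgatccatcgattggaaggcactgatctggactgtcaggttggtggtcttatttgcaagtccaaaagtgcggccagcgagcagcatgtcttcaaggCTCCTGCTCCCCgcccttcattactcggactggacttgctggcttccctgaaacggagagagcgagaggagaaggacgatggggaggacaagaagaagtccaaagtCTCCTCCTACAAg
DHX35: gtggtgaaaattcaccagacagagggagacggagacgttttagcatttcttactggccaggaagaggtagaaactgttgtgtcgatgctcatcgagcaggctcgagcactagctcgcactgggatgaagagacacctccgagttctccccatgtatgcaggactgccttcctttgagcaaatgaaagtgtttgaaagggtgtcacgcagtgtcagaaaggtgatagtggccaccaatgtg
The DHX30 stretch is the 240 bases shared by both peaks, spliced from chr3:47848238-47848632 (plus strand), with a fold enrichment of 40.9 in shCtrl and 319 in shNAT10, while its level was 27.5 ± 2.52 and 21.4 ± 0.486 FPKM (SD, n = 3). It holds no copy of the pattern. The DHX9 stretch is the 290 CDS bases shared by its peaks at chr1:182878021-182879386 (plus strand; 18.3 and 22.0) and holds 1 copy. The DHX38 stretch is the whole shCtrl peak of 240 bases at chr16:72096158-72096397 (plus strand) and holds 2 copies. The DHX35 stretch is the middle 240 bases of the shNAT10 peak, spliced from chr20:39002809-39006166 (plus strand), and holds none. Of all 240-base windows of the longest coding transcripts 54.4% hold at least 1 copy, and 59.6% of 290-base windows do, so the matches are no more than a description.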

How the data were processed

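The processed RNA-seq and acRIP-seq values of the PANC-1 groups were analysed. The authors deposited FPKM per gene for each of the 6 RNA-seq libraries, and the submitters' processing notes name HISAT2 2, HTSeq 0.11.0, DESeq2 1.22.2 and GRCh38; the strand setting is not given in the sources used here. The deposited peak lists give, per group, 1 pooled set of peaks with a fold enrichment (a ratio of IP over input), a p-value and a log10 score; the peak caller is not given in the sources used here. Genes that reached an FPKM of 1 in 3 or more libraries were tested by limma 3.58.1 in R 4.3.3 (mean-variance trend, log2 of FPKM + 0.1, so that changes of low genes are understated), with Benjamini-Hochberg adjustment over all tested genes. Whole reads were recovered from 97.3% of the values above 0 in each library (within 0.05 of a whole number). Peaks were called overlapping at 1 shared base on the same strand and placed on GENCODE v29. The helicases, roles, partner lists and sequence motifs were chosen with earlier results of these data known. The genes given with values were NAT10, the called helicases, the most abundant of each role, paralog pairs, DHX30, those with peaks in 1 list alone, and the 3 largest changes per direction of each other list. Some further members are given after their values were seen. 1 further result is not reported here. Scripts were tested on simulated data. 15 alternatives were run for the RNA-seq values.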

Additional observations from a re-analysis of the deposited data

How the results depend on the processing

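Of the 11 called helicases, 7 kept their call in all 15 alternatives (3 lower, 4 higher), and no log2 fold change of a called helicase changed sign. DDX60L lost its call in 7 of 14, DDX23 in 5, DHX30 in 2 and DDX11 in 1 (without shNAT10 replicate 2, adjusted p = 0.0504 from limma). Leaving out 1 library at a time gave 3 to 9 lower helicases (6.38% to 19.1%, against 13.6% to 25.6% of all genes). It gave 4 to 11 higher (8.51% to 23.4%, against 13.7% to 25.4%) and a median log2 fold change of -0.025 to 0.041. The lower count was 9 without shCtrl replicate 2 and 3 without shNAT10 replicate 2 or 3, and the higher count 11 without shCtrl replicate 2 and 10 without shCtrl replicate 1. A scaling to TPM moved the median of all tested genes from -0.011 to 0.097 and gave 10 higher helicases (21.3%, against 25.8% of all genes) and 4 lower (8.51%, against 16.0%) with a median of 0.125, and an FPKM of at least 5 gave a median of 0.054. Over all genes, leaving out an shNAT10 replicate gave 1765 to 1897 lower and 1774 to 1829 higher genes in place of 2751 and 2699. Leaving out genes that passed the filter through 1 group alone, chosen after seeing the data, gave 4 lower and 6 higher. With the replicate block, 5 helicases were lower (10.6%, against 20.1% of all genes) and 5 higher (10.6%, against 19.4%). The mean of its group was taken from each log2 value, gene by gene. What remained had correlations of -0.043, 0.064 and 0.107 between same-numbered libraries of the 2 groups. The labels do not say whether these libraries share more than a number. With the 50% of peaks of highest fold enrichment, 21 helicases had a peak in shCtrl in place of 35. In shNAT10 alone a peak then stood on 12 in place of 7, and 10.7% of the shCtrl helicase peaks overlapped in place of 30.5%. With all peaks, requiring 50% of each peak to be shared gave 17.1%. The matching shares over all genes are not given for these settings, so these values do not set the helicases apart. The pooled peak lists give no replicate error, and 3 libraries per group limit the precision of small changes.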
